A study of Mus musculus with 6 samples.

Results

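The data compared mouse eosinophils given interleukin-33 (IL-33) for 4 h with the same cells left without cytokine for 4 h. Of the 22548 gene symbols in the deposited table, 10803 had an FPKM of at least 1 in either library and were compared. FPKM, the fragments assigned to a transcript scaled by its length and by the library size, was summed over the transcripts of each gene. A gene is called higher or lower, and is said to have risen or fallen, where log2 of the ratio of FPKM + 1 (IL-33 over untreated) was at least 1 or at most -1. On this scale, genes of low FPKM appear to change less than they did. The cells came from wild-type BALB/c mice aged 4 to 8 weeks. Their low-density bone marrow cells spent 14 days in culture. Stem cell factor and FLT3 ligand (100 ng/ml each) were present over days 0 to 4, and IL-5 (10 ng/ml) replaced them until the end. The untreated group received no further cytokine and the IL-33 group received IL-33 at 10 ng/ml, so both had been grown in IL-5. The series held 6 libraries, 1 for each of untreated, IL-33 and IL-4 (10 ng/ml) at 1 h and at 4 h, and 2 of them enter the main comparison. Each side is 1 library, so the differences could not be checked against replicates and carry no p-value.

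IL-33 is an alarmin of the IL-1 family that is released by damaged epithelium and other barrier cells. It binds the receptor ST2, encoded by Il1rl1, together with the IL-1 receptor accessory protein, and the adaptor MyD88 carries the signal through IRAK kinases and TRAF6 to NF-kB and the MAP kinases. NF-kB switches on genes of inflammation and survival and also the genes of its own inhibitors. Eosinophils are granulocytes of allergic inflammation and worm infection that depend on IL-5 and carry ST2.

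Defining eosinophil transcripts were abundant in both libraries. Prg2, the major basic protein of the granule, was listed at 44745 FPKM without and 41838 with IL-33 (log2 change -0.10), and the eotaxin receptor gene Ccr3 at 414 and 399.7 (-0.05). Of 31 eosinophil identity genes compared, none rose and 2 fell, with a median change of -0.05. The falls were those of Hrh4 and Ltc4s, both of low FPKM. Other members moved in either direction within the rule. Epx, the eosinophil peroxidase gene, was listed at 1920 and 1327 FPKM (-0.53) and Alox15 changed by -0.76, while Emr1 and Gata1 changed by 0.92 and 0.72. The library with IL-33 was about 1.88 times as deep as its control, estimated from the steps between low values. That estimate rests on the 55.5% of 600 low-value genes that lay on such steps, and low values of the control are the less precise ones.

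Markers of other cell types were present and did not move together. In the list of 24 markers of monocytes, macrophages and dendritic cells, Cd14, Batf3, Csf1r and Mrc1 rose (4 genes) and the median was -0.12, with a summed FPKM of 1756 and 2102. Mrc1 was under the rule against the untreated library of 1 h (0.79). The 23 neutrophil markers had a median of -0.35 and summed to 9695 and 7934 FPKM, with 2 higher (Chi3l1 and Fpr1) and 1 lower (Padi4). Most of both sums lay in S100a9 (3759 and 2910 FPKM) and S100a8 (2847 and 2004), which stayed within the rule. The 10 mast cell and basophil markers summed to 441 and 470 FPKM, the 9 lymphoid markers to 43.7 and 39.6, the 7 erythroid and megakaryocyte markers to 263 and 230 and the 6 stromal markers to 56.3 and 189. In the stromal sum the rise is that of Vcam1, which was also counted as an adhesion gene. The mast cell proteases Mcpt1 and Mcpt4, the macrophage receptor Marco, the red cell genes Car1 and Slc4a1 and the stromal gene Lum were listed at 0 in both libraries. A change in the number of cells of a type and a change in RNA per cell cannot be told apart in such bulk libraries, and the part these cells had in the results was not tested.

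The response was mainly a rise. Of all genes compared, 448 were higher (4.15%) and 149 were lower (1.38%). Small RNA genes, which are poorly measured in such libraries, made up 52 and 35 of these. Without them, 396 of 10655 genes were higher (3.72%) and 114 were lower (1.07%), and these counts are used from here on. The rises were also larger. A log2 change of 2 or more was reached by 116 rises and by 1 fall, and 39 rises reached 3. On this scale a gene of low FPKM in the control can rise far but can fall only a little, which limits this comparison. Of the rises, 64 started under 1 FPKM, where no fall can reach the rule. The median over all genes was -0.03.

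**Figure D1:**
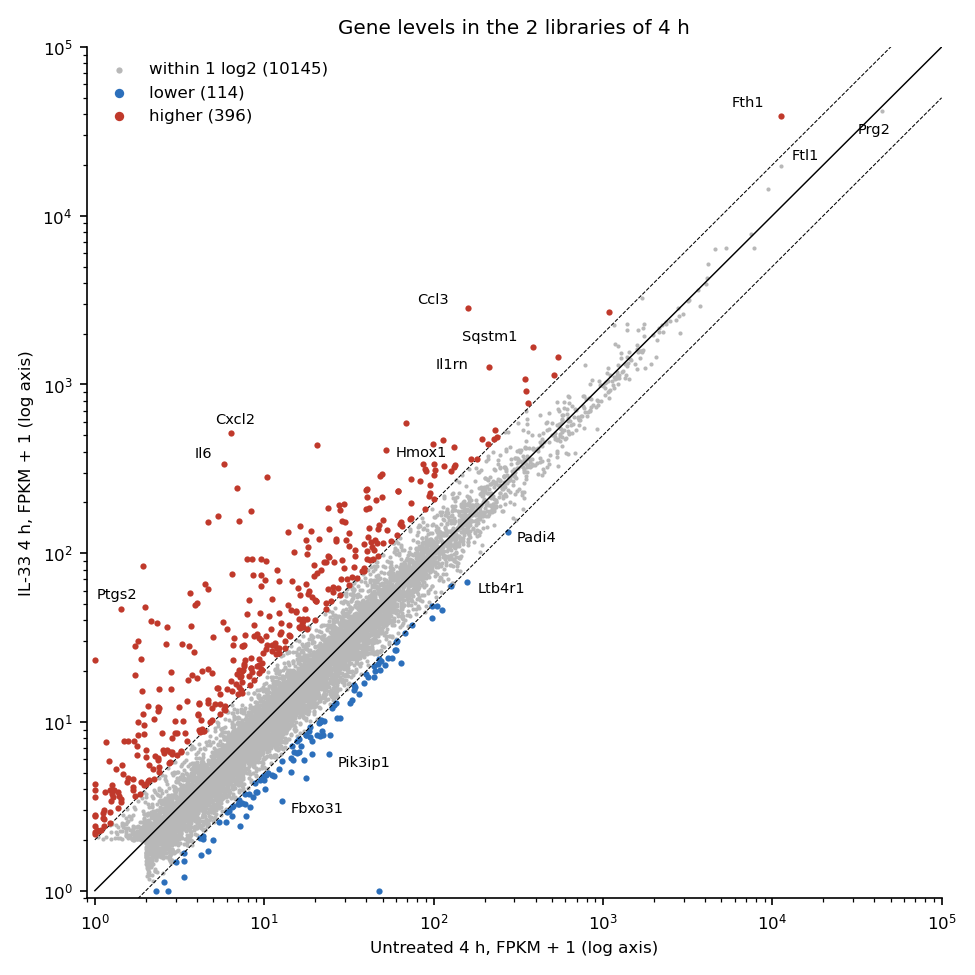
FPKM + 1 of each gene without cytokine (horizontal axis, log) and with IL-33 (vertical axis, log) at 4 h, in 1 library each, for 10655 genes without small RNA genes. The solid line marks equal values and the dashed lines a 2-fold difference: 396 genes lie on or above the upper line and 114 on or below the lower one.

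The rises spanned the whole range of expression. Among genes of 1 to 10 FPKM in the control, 158 of 4617 rose (3.42%), among those of 10 to 100 FPKM 150 of 4971 (3.02%) and among those of 100 FPKM or more 24 of 857 (2.8%). Of 210 genes under 1 FPKM in the control, 64 rose, but such a gene entered only by reaching 1 FPKM with IL-33. The genes that rose held 3.40% of all FPKM in the untreated library and 10.8% with IL-33. The genes that fell held 0.463% and 0.177%. The authors' deposited table carries a mark of difference from a test on the reads of these libraries, which 1021 of the 10655 genes carried (9.58%). It was on 373 of the 396 higher genes and 103 of the 114 lower genes, and on 545 genes within the rule. The mark and the calls rest on the same 2 libraries, so the mark is not independent support for them.

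The calls were also set against the second untreated library of the series, from 1 h, in place of the single control of 4 h. Time then differs along with the treatment, and these cannot be told apart. Whether a lost call goes with the time or with the control library was not tested. In that comparison, whose values come from tables normalised apart from each other, 426 of 10603 genes were higher (4.02%) and 159 lower (1.5%). Of the 396 higher genes, 308 were still higher (77.8%). Of the 114 lower genes, 27 were still lower (23.7%), a further 81 were below the control by less than 1 log2 and 6 were not below it. The rises thus mostly stood against both untreated libraries, and most falls stood past the rule against 1 of them.

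**Figure D2:**
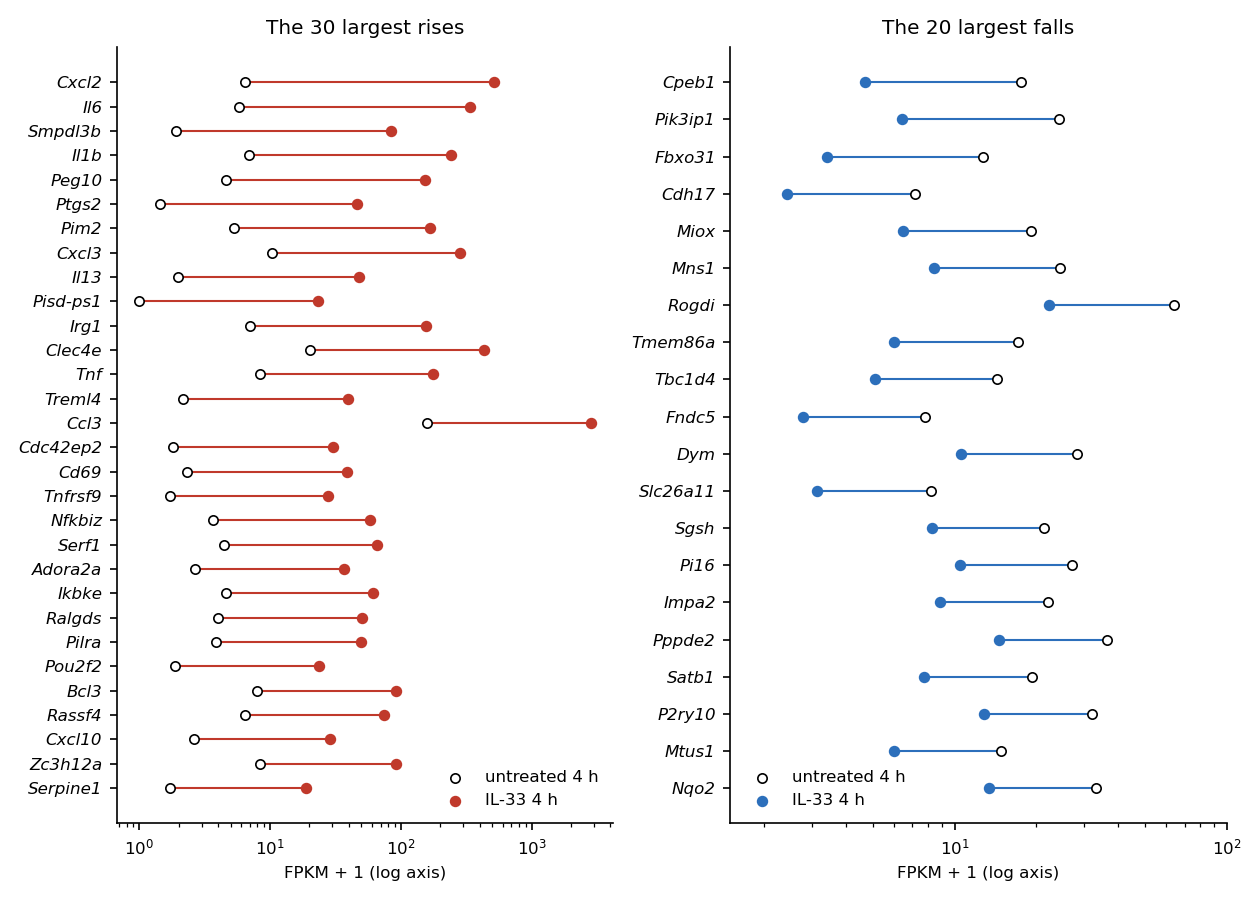
FPKM + 1 (log axis) of the 30 genes that rose most and the 20 that fell most, leaving out predicted symbols (Gm, Rik and LOC), among those that reached at least 5 FPKM in the higher library, without cytokine (open) and with IL-33 (filled), 1 library each. Cxcl2 shows the longest rise, from 5.39 to 516 FPKM, and Cpeb1 the longest fall among those shown, from 16.6 to 3.68. The rise of Pisd-ps1, from 0.0025 to 22.4 FPKM, is uncertain. It stood at 18.9 FPKM in the untreated library of 1 h (a change of 0.24), and changed by 3.11 with IL-4 at 4 h.

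Secreted signals were among the most responsive groups. Of 9 CXC chemokines compared, 5 rose, and of 12 CC chemokines 8 rose, with list medians of 1.23 and 1.45. CXC chemokines such as Cxcl1, Cxcl2 and Cxcl3 attract neutrophils. Cxcl1 stood at 0.571 FPKM without and 3.63 with IL-33, a log2 change of 1.56 after 2.48 at 1 h. Cxcl5 went from 0.126 to 1.64 FPKM (1.23). Cxcl10, which attracts activated T cells, went from 1.63 to 27.9 FPKM (3.46, after 4.62 at 1 h), but its reads may be shared with 2 genes that overlap it in the deposited coordinates. Pf4 and Ppbp, platelet-type chemokines whose genes lie in the same cluster on chromosome 5, were listed at 138 FPKM in both libraries and at 51.0 and 61.5.

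CC chemokines draw monocytes, T cells and eosinophils. Ccl4 stood at 26.9 FPKM without and 178 with IL-33 (2.68). The monocyte attractants Ccl7 and Ccl2 rose from 25.4 to 119.6 FPKM (2.19) and from 6.67 to 31.7 (2.09). Ccl5, also called RANTES, went from 15.3 to 55.3 FPKM (1.79) and Ccl9 from 115 to 328 (1.51). The eotaxin gene Ccl24 was low, at 0.392 and 2.64 FPKM (1.39), and Ccl1, listed at 0 without IL-33, reached 1.18 FPKM. Ccl6 was by far the most abundant chemokine and changed little, from 4171 to 5176 FPKM (0.31). In FPKM, Ccl3 gained the most of these genes, 2669. Some of these calls end against the untreated library of 1 h, where Ccl4 stood at 132 FPKM (a change of 0.42) and Ccl9 at 183 (0.84); Cxcl5 then changed by 0.95.

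Among 26 cytokines and growth factors, 9 rose and 1 fell (median 0.36). The IL-1 family moved on both the agonist and the antagonist side. Il1a went from 12.8 to 133 FPKM (3.28), while Il1rn, which encodes the IL-1 receptor antagonist, went from 213 to 1275 (2.58). Il1f9 went from 14.3 to 44.4 FPKM (1.57, and 1.99 against the untreated library of 1 h). The list held it under its newer symbol, Il36g, which found no match, so it is not in the count. Most of the Il1rn gain lay in 1 of 3 transcripts, NM_001039701, at 97.8 FPKM without and 869 with IL-33. Ebi3, a subunit of IL-27 and IL-35, went from 99.7 to 336 FPKM (1.74). Growth factors of the epithelium and of bone were low: Hbegf stood at 0.224 and 2.95 FPKM (1.69) and Bmp2 at 0.237 and 1.94 (1.25, and 0.91 against the untreated library of 1 h).

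The type 2 cytokines differed from each other. Il13, a driver of mucus and airway responses, rose from 0.971 to 46.8 FPKM (4.60, and 3.99 against the untreated library of 1 h). Il4 was already at 82.8 FPKM in untreated cells and stood at 104 with IL-33 (0.33), and Il5 was listed at 0 and at 0.0242. Il15, a survival factor of lymphocytes, was the only cytokine that fell, from 5.49 to 2.14 FPKM (-1.05). Tgfb1 was listed at 189.6 and 309.7 FPKM (0.71) and Csf1 at 260.3 and 283. Of 7 TNF superfamily ligands, 2 rose, and the one beside Tnf was Ltb (lymphotoxin beta), from 113 to 468 FPKM (2.04).

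Il1rl1 was listed at 63.9 FPKM without and 103 with IL-33 (0.68), below the rule. Its transcripts kept their shares, with NM_001025602 holding 95.6% and 95.3%. Il1rap (2.87 and 4.58 FPKM) and Myd88 (42.4 and 63.8 FPKM) also stayed under the rule. Of 31 genes of the receptor and MyD88 pathway, 4 rose and none fell (median 0.18). Irak3, an IRAK family member that inhibits the pathway, had the largest change, from 28.7 to 194 FPKM (2.72, after 0.83 at 1 h). Map3k8, the kinase TPL2, went from 1.06 to 11.4 FPKM (2.59), Mapkapk2, a target kinase of p38, from 101 to 310 (1.61) and the adaptor gene Traf3 from 12.3 to 26.4 (1.04).

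The NF-kB subunits, their inhibitors and the IKK kinases gave 9 rises and no fall among 18 genes (median 0.97, and 1.26 at 1 h). Nfkbia, which encodes the inhibitor IkB-alpha, stood at 68.1 FPKM without and 587 with IL-33 (3.09). Nfkbiz went from 2.65 to 57.3 FPKM (4.00) and Nfkbie from 11.6 to 37.5 (1.61). All 3 had a larger change at 1 h, of 3.96, 6.11 and 3.13. Among the subunits, Relb rose from 7.58 to 73.0 FPKM (3.11) and Nfkb2, the precursor of p52, from 16.7 to 119 (2.76). Nfkb1 rose from 44.0 to 119 FPKM (1.41) with a change of only 0.07 at 1 h. Rel and Rela, by contrast, stood at 7.41 and 12.7 FPKM (0.70) and at 33.7 and 50.6 FPKM (0.58). Ikbke, an IKK-related kinase, went from 3.65 to 60.6 FPKM (3.73) after 0.15 at 1 h, while Chuk, Ikbkb and Ikbkg, the classical IKK subunits, changed by 0.30, -0.03 and 0.36.

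Of 23 genes that brake the pathway by editing ubiquitin or degrading mRNA, 7 rose (median 0.34). Tnfaip3, the enzyme A20, stood at 18.0 FPKM without and 134 with IL-33 (2.83). Its partners Tnip1 and Tnip3 went from 25.6 to 117 FPKM (2.15) and from 0.801 to 7.36 (2.21). The ribonuclease genes Zc3h12a and Zc3h12c went from 7.45 to 91.3 FPKM (3.45) and from 0.994 to 5.20 (1.64). Zfp36, whose protein tristetraprolin destabilises cytokine mRNA, was listed at 95.4 and 101 FPKM, and Cyld at 21.1 and 21.5.

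Promoters were searched on both strands for GGGA and TTCC separated by any 2 bases, a common form of the site that NF-kB binds. Windows from 250 bases before to 50 bases after the start were taken from RefSeq (GRCm38.p6). Of the 10655 genes, 8515 matched an entry through their RefSeq transcripts. The sequence was found in 14 of 309 higher genes (4.53%), in 1 of 86 lower genes (1.16%) and in 152 of the 8515 compared genes (1.79%). Of all 32851 windows of the table, 482 held it (1.47%). Of 103 genes higher at both 1 h and 4 h, 10 held it (9.71%), and of 100 genes higher at 4 h whose change at 1 h was within 0.25, 2 held it (2%). A match is a description of letters and not of a bound site. The 250 bases before the start are shown for 6 of the 14 genes, chosen after the matches were seen to set the clustered chemokines beside a cytokine and an inhibitor of NF-kB. Capitals mark the match on either strand. They lie at chr5:90903649-90903898 (Cxcl2, + strand), chr5:90785851-90786100 (Cxcl3, + strand), chr5:90890995-90891244 (Cxcl1, + strand), chr5:30012864-30013113 (Il6, + strand), chr5:92348890-92349139 (Cxcl10, - strand) and chr12:55492648-55492897 (Nfkbia, - strand), each printed 5′ to 3′ on the gene's strand.
Cxcl2: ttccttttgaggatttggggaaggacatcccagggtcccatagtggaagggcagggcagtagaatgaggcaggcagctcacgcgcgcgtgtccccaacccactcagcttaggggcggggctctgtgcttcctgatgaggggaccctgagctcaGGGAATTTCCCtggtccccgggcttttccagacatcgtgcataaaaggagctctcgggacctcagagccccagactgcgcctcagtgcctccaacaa
Cxcl3: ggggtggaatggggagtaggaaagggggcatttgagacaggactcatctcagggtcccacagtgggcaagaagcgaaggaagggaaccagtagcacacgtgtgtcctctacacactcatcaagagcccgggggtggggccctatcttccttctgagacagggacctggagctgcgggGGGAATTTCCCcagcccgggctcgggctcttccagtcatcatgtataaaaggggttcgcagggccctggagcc
Cxcl1: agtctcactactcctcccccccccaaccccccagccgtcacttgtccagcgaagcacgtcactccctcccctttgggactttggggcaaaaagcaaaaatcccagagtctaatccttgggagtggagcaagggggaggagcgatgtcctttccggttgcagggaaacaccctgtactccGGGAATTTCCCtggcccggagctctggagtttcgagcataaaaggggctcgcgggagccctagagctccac
Il6: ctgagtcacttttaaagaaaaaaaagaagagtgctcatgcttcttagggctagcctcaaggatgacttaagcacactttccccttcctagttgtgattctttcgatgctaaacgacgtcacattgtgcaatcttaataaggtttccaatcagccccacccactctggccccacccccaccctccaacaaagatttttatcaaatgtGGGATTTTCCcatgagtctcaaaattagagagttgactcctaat
Cxcl10: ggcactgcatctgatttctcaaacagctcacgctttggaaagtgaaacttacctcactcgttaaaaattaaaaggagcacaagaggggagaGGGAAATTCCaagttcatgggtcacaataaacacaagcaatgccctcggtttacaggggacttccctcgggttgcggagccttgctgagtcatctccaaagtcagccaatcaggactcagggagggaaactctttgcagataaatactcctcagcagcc
Nfkbia: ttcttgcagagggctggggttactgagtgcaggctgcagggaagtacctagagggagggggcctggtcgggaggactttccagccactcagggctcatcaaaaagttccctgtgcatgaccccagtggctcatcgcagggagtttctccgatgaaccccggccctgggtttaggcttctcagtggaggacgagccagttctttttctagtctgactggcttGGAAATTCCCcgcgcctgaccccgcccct

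In Cxcl1, Cxcl2 and Cxcl3 the same 11 letters, GGGAATTTCCC, hold a match on each strand that starts 71, 97 and 73 bases before the start of the gene. The match of Nfkbia lies on the opposite strand, 29 bases before the start. Another consensus of the NF-kB site, GGGRNWYYCC, was chosen after values were seen. In it, R stands for A or G, W for A or T, Y for C or T and N for any base. It was present in 52 of 309 higher genes (16.8%), 1 of 86 lower genes (1.16%) and 523 of all compared genes (6.14%). This consensus does not include every match of the first sequence, which Gbp2, Vmp1 and Ccl1 held without it. The consensus was in 23.3% of the genes higher at both times and in 14% of those higher at 4 h with a 1 h change within 0.25. The AP-1 sequence TGACTCA was in 6.8% of the higher genes and 4.49% of all, and in 11.7% of those higher at both times. TTGCNNAA, a form of the C/EBP site, was in 14.2% of the higher genes, 10.5% of all and 21% of those higher at 4 h with a 1 h change within 0.25. STAT sites, written as TTC and GAA with 3 or with 4 bases between them, were in 10.4% and 7.12% of the higher genes and in 8.36% and 6.49% of all. TATAAA was in 13.6% of the higher genes and 8.66% of all compared genes, CCAAT in 36.6% and 43.6%, and TGACGTCA in 3.24% and 3.69%. Over all 32851 windows, counted per window and not per gene, these 3 were in 13.6%, 37.4% and 1.79%. In the same windows, the NF-kB consensus was in 4.51%, TGACTCA in 5.2%, TTGCNNAA in 10.8% and the STAT forms in 8.3% and 6.95%. A form of the antioxidant response element, TGAC and GC separated by any 3 bases, was also chosen after values were seen. This form was in 18.8% of the higher genes and 17.2% of all compared genes. It was in 13.6% of those higher at both times, 26% of those with a 1 h change within 0.25 and 12.4% of all windows.

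The largest gain of RNA in the comparison was that of ferritin. Fth1, the ferritin heavy chain that oxidises and stores iron, went from 11304 to 39117 FPKM (1.79), and from 1.65% to 5.16% of all FPKM. At 1 h its change was 0.65, and it was 1.65 against the untreated library of 1 h. Its pseudogenes are many, so the read assignment is uncertain. Ftl1, the light chain, was listed at 11310 and 19712 FPKM (0.80), under the rule. In the mm9 build, Fth1 (NM_010239) lies on chromosome 19 at 10057193 to 10059582.

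Other genes of iron handling were set beside ferritin in a list chosen after values were seen, in which 3 of 17 rose and 1 fell. Hmox1, haem oxygenase 1, which frees iron from haem, went from 51.1 to 406 FPKM (2.96). Slc11a1, a metal transporter of phagosomes, went from 8.03 to 32.2 FPKM (1.88). Slc25a37, the mitochondrial iron importer, fell from 15.6 to 6.197 FPKM (-1.203), though by -0.59 on the log2 scale against the untreated library of 1 h. The transferrin receptor Tfrc (20.8 and 16.9 FPKM) and the iron exporter Slc40a1 (49.1 and 64.0 FPKM) stayed within the rule. Alas1, the first enzyme of haem synthesis, which was not in that list, went from 81.6 to 266 FPKM (1.69).

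Many antioxidant genes rose. Of 31 genes of the NADPH oxidase and of antioxidant defence, 12 rose and none fell, with a median of 0.46, while 1 rose at 1 h and none with IL-4 at 4 h. Thioredoxin and peroxiredoxin genes repair oxidised proteins and remove peroxides. Txnrd1, thioredoxin reductase, went from 47.2 to 287 FPKM (2.58), Srxn1, sulfiredoxin, from 27.9 to 155 (2.43), Prdx5 from 543 to 1449 (1.41) and Txn1 from 235 to 489.8 (1.06). Sod2, the mitochondrial superoxide dismutase and a known NF-kB target, went from 10.2 to 52.5 FPKM (2.26), with a similar 2.16 at 1 h. Sod1, Gpx1 and Prdx6 changed by -0.03, -0.03 and -0.12. Txnrd1 overlaps 1 other gene in the deposited coordinates.

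Genes for the synthesis of glutathione, the main small antioxidant of the cell, were among the rises. Gclm and Gclc, the subunits of its rate-limiting enzyme, stood at 60.5 and 233 FPKM (1.93) and at 18.9 and 51.7 FPKM (1.41), with changes of -0.06 and 0.09 at 1 h. Slc7a11, the cystine importer, went from 94.8 to 251 FPKM (1.397) and Nqo1, a quinone reductase, from 165 to 359.955 (1.12, and 0.91 against the untreated library of 1 h). Many of these genes are known targets of the transcription factor NRF2, whose gene Nfe2l2 was listed at 85.7 and 153 FPKM (0.83). In a list of glutathione and pentose phosphate genes chosen after values were seen, 8 of 18 rose. This count includes Ggh (39.2 to 237 FPKM), gamma-glutamyl hydrolase, which acts on folates and belongs to neither pathway. Others among the 8 were the exporter gene Abcc1 (27.8 to 89.7 FPKM), Gstm1 (193 to 473), Gstm2 and Gstm3. The Gstm genes are near-identical, so their separate values are uncertain. Pgd and G6pdx, which make NADPH in the pentose phosphate pathway, changed by 0.91 and 0.57. A further pair outside the lists was also chosen after values were seen: Nadk, NAD kinase, which makes NADP, went from 98.4 to 445 FPKM (2.16), and Sqstm1, the autophagy receptor p62, from 386 to 1662 (2.10).

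**Figure D3:**
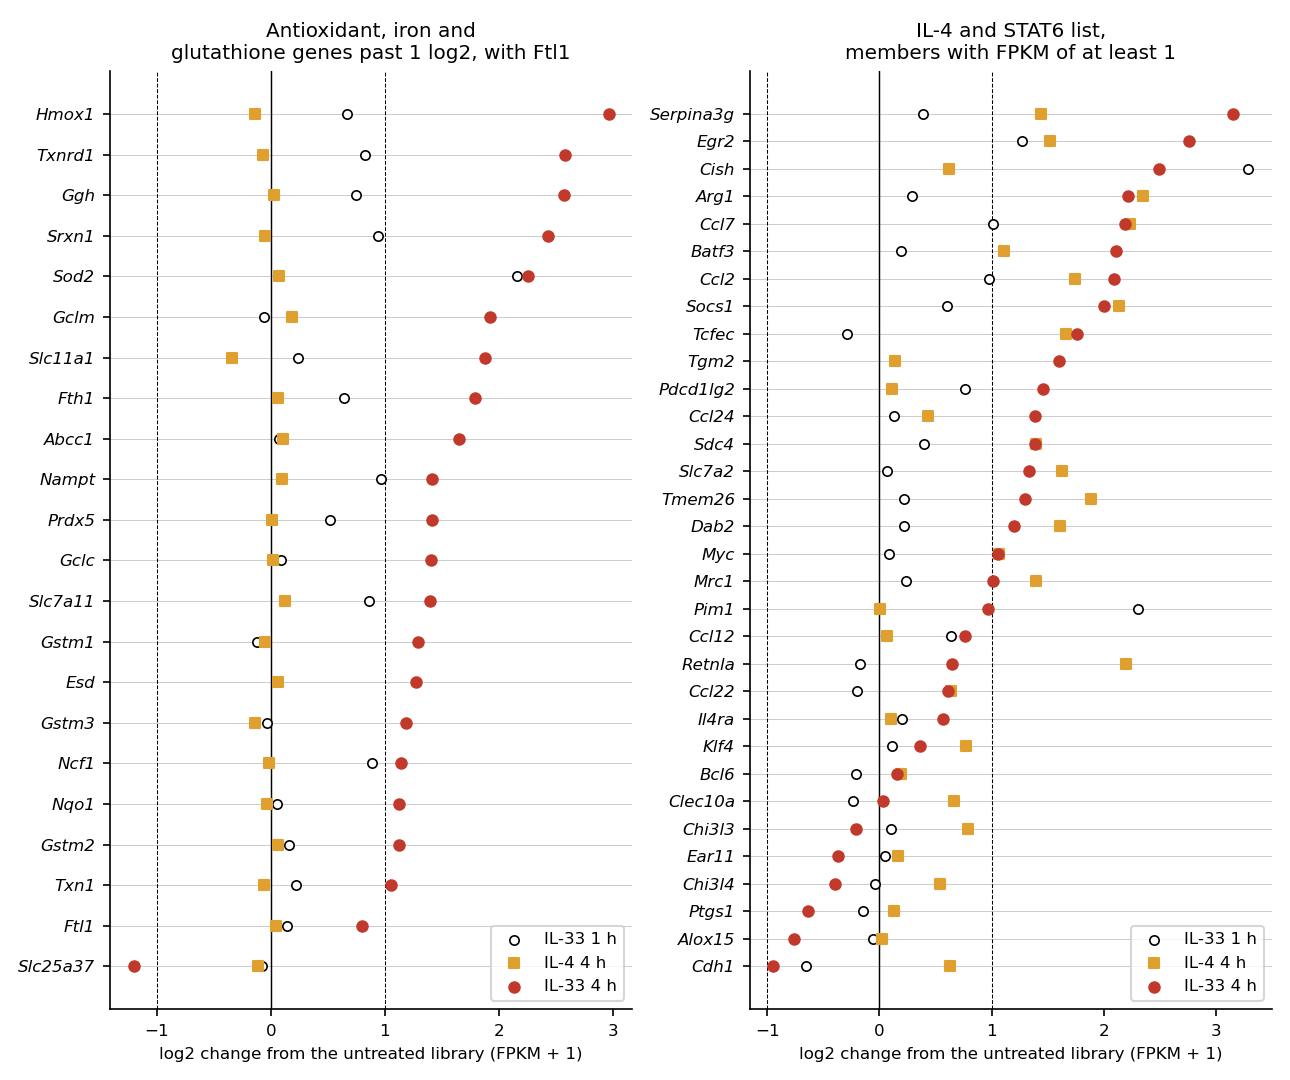
Log2 change of FPKM + 1 against the untreated library of the same time with IL-33 at 1 h (open circles), IL-33 at 4 h (red) and IL-4 at 4 h (squares), 1 library each, with dashed lines at 1 and -1. Left, antioxidant, iron and glutathione genes past the rule, with Ftl1 and with Ggh, which acts on folates. The IL-4 values there lie near 0. Right, the IL-4 and STAT6 list, where many IL-4 values lie near or past 1. IL-33 4 h and IL-4 4 h share the untreated library.

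The oxidase that eosinophils use to make superoxide showed a rise in 1 subunit. Ncf1, p47phox, went from 515 to 1138 FPKM (1.14, and 0.97 against the untreated library of 1 h), while the catalytic subunit gene Cybb was listed at 275 and 236. Metallothionein genes, which bind metals, did not rise: Mt1 was listed at 445 and 313 FPKM (-0.50) and Mt2 at 36.3 and 21.2 (-0.75).

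Surface receptors of innate recognition rose widely. Of 37 lectin, scavenger and pattern receptors, 13 rose and none fell (median 0.36). Clec4d and Clec4n, C-type lectins that bind microbial glycolipids and mannans and lie beside Clec4e on chromosome 6, went from 61.0 to 233 FPKM (1.92) and from 8.42 to 43.5 (2.24). Tlr9, a sensor of DNA, went from 1.82 to 14.8 FPKM (2.48), Tlr2, a sensor of lipopeptides, from 9.29 to 25.9 (1.39) and Nod2 from 4.99 to 14.6 (1.38). Olr1, a receptor of oxidised lipoprotein, went from 30.5 to 109 FPKM (1.80). Tlr4 was listed at 14.9 and 16.5 FPKM (0.14). Trem1, an amplifier of inflammation, went from 6.18 to 17.5 FPKM (1.37), but the untreated library of 1 h held 27.7 FPKM of it, which turns the change to -0.63. Olr1 and Tlr2 stood at 64.1 and 14.6 FPKM in that library, which leaves 0.76 and 0.79, under the rule.

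Immunoglobulin-like and Siglec receptors, many of them inhibitory, had 11 of 40 members higher and none lower (median 0.53, against 0.08 at 1 h). Ligands that restrain or costimulate T cells were included. Cd274 (PD-L1) stood at 27.5 and 69.2 FPKM (1.30), Pdcd1lg2 (PD-L2) at 6.45 and 19.4 (1.45), Cd80 at 15.1 and 39.7 (1.34) and Icosl at 15.9 and 35.7 (1.12). Cd86 did not rise (3.41 and 2.66 FPKM). The adhesion-type receptors Slamf7 and Cd48 went from 3.66 to 19.7 FPKM (2.15) and from 132 to 425 (1.68). Ceacam1, an inhibitory receptor, went from 17.3 to 58.9 FPKM (1.71) and Siglecg from 6.58 to 21.1 (1.54), while Siglec5, which encodes the eosinophil marker Siglec-F, was listed at 232 and 189 (-0.29). Ceacam1 overlaps 4 other genes in the deposited coordinates, so its reads may be shared with them. Lilrb4 and Gp49a rose to 918 and 774 FPKM, from 348 and 358, but they are near-identical and their separate values are uncertain. Several of these calls end against the untreated library of 1 h: Siglecg then changed by 0.44, Cd274 by 0.81, Cd80 by 0.87, Lilrb4 by 0.72 and Gp49a by 0.33.

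Of 36 adhesion genes, 7 rose and 2 fell. Vcam1, a ligand of the integrin VLA-4, went from 28.8 to 152 FPKM (2.36) and the tetraspanin genes Cd81 and Cd9 from 17.1 to 108 (2.59) and from 345 to 1076 (1.64, and 0.99 against the untreated library of 1 h). The fibronectin receptor chains Itga5 and Itgb1 went from 6.44 to 16.1 FPKM (1.204) and from 64.5 to 145 (1.16). The leukocyte integrin genes were within the rule: Itgam was listed at 597 and 473 FPKM (-0.34), Itgb2 at 558 and 549 (-0.02) and Itgb7 at 225 and 146 (-0.63). Itgae fell from 3.96 to 0.987 FPKM (-1.32), but stood at 0.632 in the untreated library of 1 h, which turns the change to 0.28.

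Cytokine receptors gave 5 rises and 2 falls among 34 genes (median 0.10). The chains of the IL-10 receptor both rose, Il10ra from 6.43 to 27.3 FPKM (1.93) and Il10rb from 52.0 to 135 (1.36). Il5ra, the specific chain of the IL-5 receptor, was listed at 24.7 and 12.9 FPKM (-0.89), while the shared chains Csf2rb and Csf2rb2 stood at 761 and 858 FPKM (0.17) and at 532 and 575 (0.11). Il17ra fell from 47.7 to 22.03 FPKM (-1.08), and by -0.75 on the log2 scale against the untreated library of 1 h. Among 18 TNF receptors, 2 rose, and Tnfrsf13b and Tnfrsf1b lay at the edge of the rule (1.00 and 0.99). Of 19 chemokine and chemoattractant receptors, 2 rose and 1 fell. The rises were those of the formyl peptide receptor Fpr1, from 8.37 to 30.4 FPKM (1.75), and the chemerin-binding Ccrl2, from 22.2 to 87.6 (1.94, after 3.47 at 1 h), but Ccrl2 stood at 59.3 FPKM in the untreated library of 1 h, which leaves 0.56. The fall was that of the histamine receptor Hrh4, from 1.55 to 0.121 FPKM (-1.19, and -0.77 against that library).

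G-protein and small GTPase regulators had 7 rises and 1 fall of 40. The adenosine receptors, which sense extracellular adenosine and often restrain granulocytes, rose in 2 of 3 members. Adora2a stood at 1.67 FPKM without and 35.7 with IL-33 (3.78), and Adora2b at 2.71 and 35.9 (3.32). In the untreated library of 1 h Adora2a was higher, at 15.6 FPKM. Adora3 was listed at 152 and 133 FPKM (-0.20). Gpr84, a receptor of medium-chain fatty acids, went from 1.399 to 14.6 FPKM (2.70) and the endosomal GTPase gene Rab20 from 9.27 to 89.3 (3.14).

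Feedback on cytokine receptors that signal through JAK and STAT was represented by 29 genes of SOCS, PIM, JAK, STAT and phosphatases, of which 8 rose (median 0.42). Ptpn1, a phosphatase of JAK2 and TYK2, went from 46.3 to 138 FPKM (1.56). The kinase genes Tyk2 and Jak2 rose late, from 19.1 to 51.4 FPKM (1.38) and from 41.3 to 90.3 (1.11), with changes of 0.06 and 0.00 at 1 h. Pim3 went from 7.52 to 18.7 FPKM (1.21, and 0.91 against the untreated library of 1 h), and Pim1 was listed at 59.3 and 117 (0.97) after 2.30 at 1 h. The STAT genes stayed within the rule, with changes from -0.16 (Stat5b) to 0.55 (Stat5a).

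A list of 32 IL-4 and STAT6 response genes was partly picked from genes that IL-4 raised in these same libraries, so it is not independent evidence. The 4 h comparison with IL-33 had 18 of them higher and no member lower (median 1.13), and 11 with a pseudocount of 5, where 2.43% of all genes rose. With IL-33 at 1 h, where 208 of 10480 genes rose (1.98%), 5 of the list were higher (median 0.19). With IL-4 at 4 h, where 32 of 10703 genes rose (0.299%), 15 were higher (median 0.78), against the same untreated library. Individual members differed between the cytokines. Tmem26 changed by 1.30 with IL-33 and by 1.89 with IL-4, the scavenger adaptor gene Dab2 by 1.196 and 1.61 and the arginine transporter gene Slc7a2 by 1.34 and 1.63. Retnla, a marker of type 2 activation in macrophages, changed by 0.65 and 2.20. Tgm2, transglutaminase 2, changed by 1.61 with IL-33 and 0.14 with IL-4, and Pdcd1lg2 by 1.45 and 0.12. Serpina3g, a serine protease inhibitor with near-identical copies, went from 2.26 to 27.9 FPKM (3.15), with 1.44 for IL-4.

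The rises included genes of survival and of cell death. Of 18 BCL2 family genes, 8 rose and none fell (median 0.71, against 0.10 at 1 h). Bcl2l1, which encodes the survival protein BCL-XL, went from 13.4 to 44.9 FPKM (1.67) and Bcl2 from 0.868 to 3.39 (1.23, and 0.93 against the untreated library of 1 h). The 4 copies of Bcl2a1, also protective, rose by 2.22 to 2.96, but share most of their sequence. Of the pro-apoptotic members, Pmaip1 (NOXA) went from 30.7 to 132 FPKM (2.06), but stood at 98.1 in the untreated library of 1 h, which leaves 0.42. Bmf went from 0.947 to 8.63 FPKM (2.31), whereas Bbc3 (PUMA) was listed at 28.4 and 16.1 (-0.78). Mcl1 was listed at 205 and 227 FPKM (0.15), after 1.07 at 1 h. Of 31 IAP, TRAF, caspase and death regulator genes, 6 rose, such as Birc3 (94.7 to 225 FPKM), Traf1 (1.38 to 10.6), Casp4 (2.77 to 17.9) and the kinase gene Ripk2 (6.27 to 17.8).

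Transcription factors outside NF-kB differed between the times. Of 19 AP-1 and BATF factors, 2 rose, Batf3 and Batf, and Batf went from 23.2 to 94.2 FPKM (1.98) after 0.08 at 1 h. Junb, Maff and Jun, which had changed by 2.01, 1.79 and 1.87 at 1 h, stood at 0.69, 0.28 and 0.91. Fos was listed at 66.6 and 39.1 FPKM (-0.75). Pou2f2, the lymphoid factor OCT-2, went from 0.882 to 22.7 FPKM (3.66) after 0.05 at 1 h, and Ets2 from 9.65 to 41.4 (1.99). Of 7 interferon regulatory factors none was past the rule.

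Of 41 EGR, NR4A, KLF and other early factors, 8 rose, but this count depends on the control. Egr1, Egr3 and Nr4a1 stood at 5.49, 3.21 and 5.64 FPKM in the untreated library of 4 h, and at 14.2, 9.27 and 30.5 with IL-33 (1.23, 1.29 and 2.24). In the untreated library of 1 h they stood at 32.0, 71.5 and 30.5 FPKM, which turns the changes to -1.12, -2.82 and 0.00. Against that library 4 of 41 rose. Plk3, an early kinase gene, likewise changed by 1.70 or by -1.39.

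Of 33 glycolysis genes, 4 rose (median -0.07), and the glycolytic enzymes themselves were not among them. The 4 were Slc2a6, a sugar transporter (39.5 to 214 FPKM), the oxygen-sensing factor Hif1a (45.6 to 114), its hydroxylase Egln3 (12.98 to 31.6) and the oxidoreductase Ero1l (99.1 to 289). Hif1a and Egln3 changed by 0.71 and 0.38 against the untreated library of 1 h, under the rule. Slc2a3, a main glucose transporter of leukocytes, was listed at 93.5 and 50.1 FPKM (-0.88). Of 32 genes of arginine, polyamines and amino-acid transport, 5 rose (median 0.09). Phgdh, the first enzyme of serine synthesis, went from 5.03 to 34.7 FPKM (2.56), while Psat1 and Psph, which follow it, were listed at 21.3 and 18.5 and at 10.9 and 6.33. Smox, which oxidises spermine, went from 7.66 to 31.5 FPKM (1.91).

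Cholesterol genes had 4 rises of 34 (median 0.21), and 12 against the untreated library of 1 h. Idi1 stood at 49.3 and 114 FPKM (1.19) and Hsd17b7 at 7.34 and 19.8 (1.32), with Insig1, Pmvk, Mvd and Sqle just under the rule at 0.95 to 0.99. Abca1, the exporter of cholesterol, went from 3.05 to 10.2 FPKM (1.47, and 0.86 against the untreated library of 1 h).

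Genes of lipid mediators gave both rises and falls. Of 24 prostaglandin and leukotriene genes, 3 rose and 2 fell (median -0.23). The rises were those of Ptgs2, the prostacyclin receptor gene Ptgir (5.51 to 22.1 FPKM, 1.83) and Ptges, a prostaglandin E synthase (1.08 to 3.54, 1.13). On the leukotriene side, Ltb4r1, the high-affinity receptor of leukotriene B4, fell from 157 to 66.4 FPKM (-1.23), and fell as far against the untreated library of 1 h (-1.27). Alox5, Alox5ap and Lta4h, which make leukotriene B4, were listed at 233 and 188 FPKM, at 1770 and 1258 and at 185 and 127, all within the rule. Alox15, the 15-lipoxygenase of eosinophils, was listed at 925 and 546 FPKM (-0.76).

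**Figure D4:**
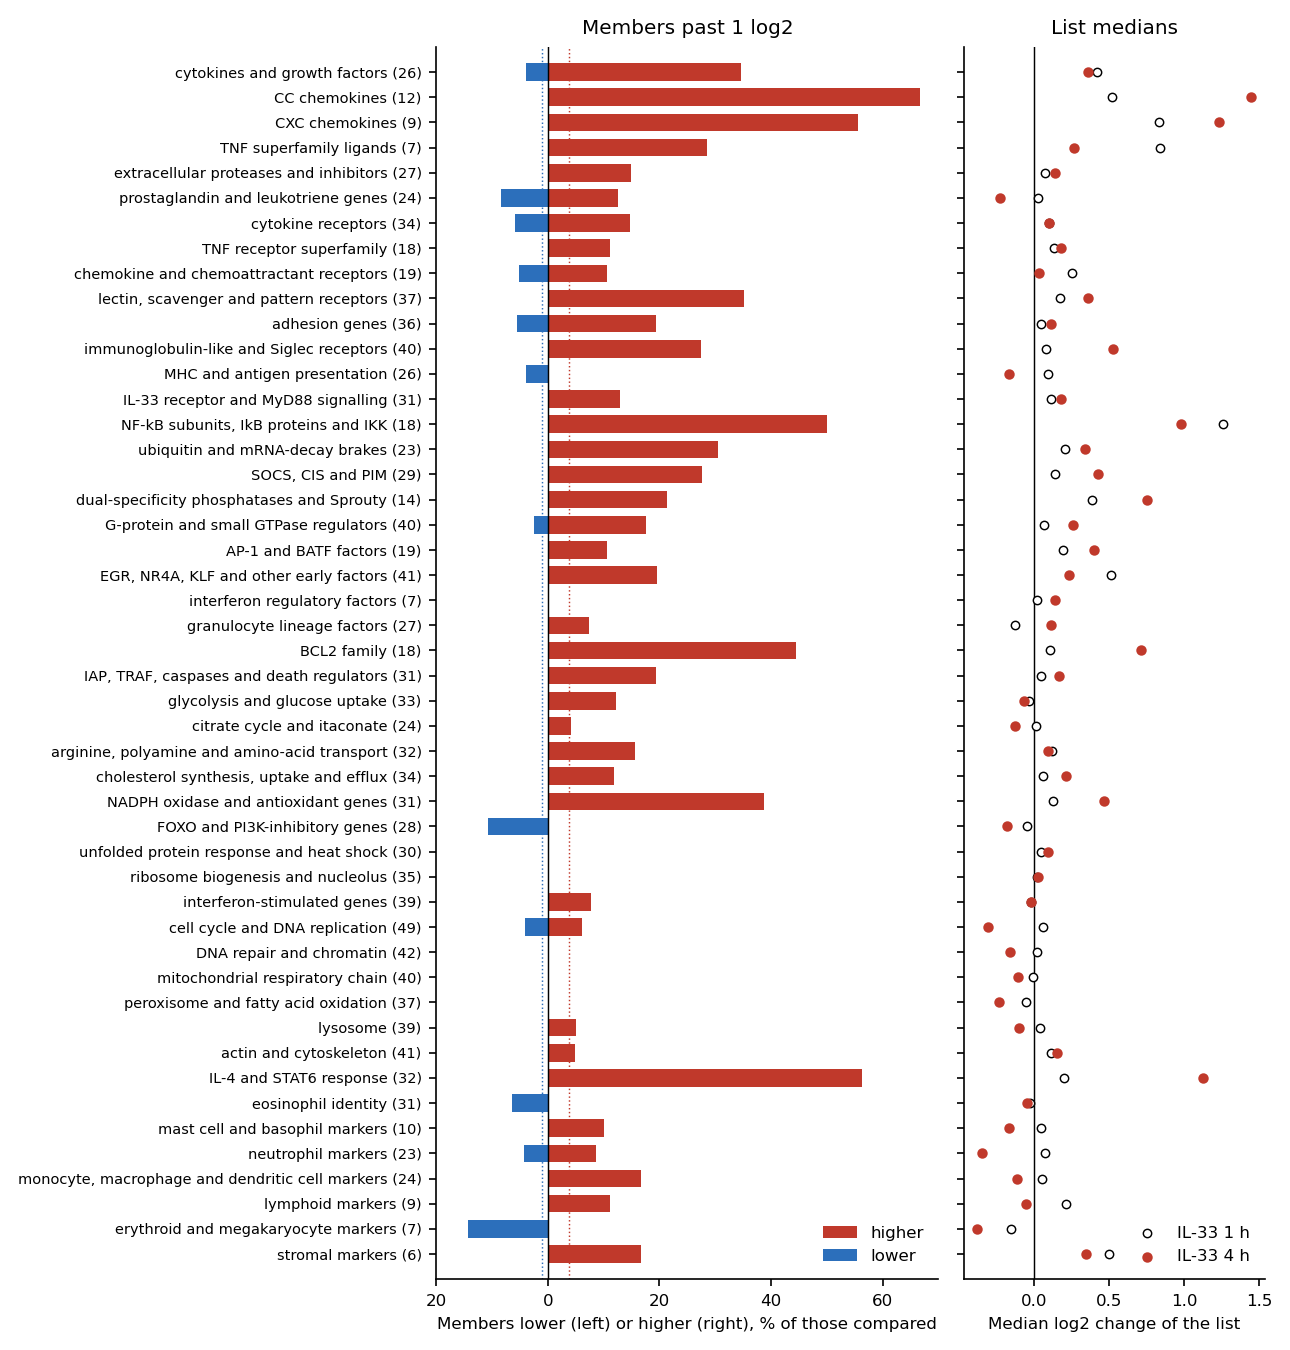
For each of 48 gene lists (number of genes compared in brackets), left, the percent of members higher (red, to the right) or lower (blue, to the left) with IL-33 at 4 h, with dotted lines at the 3.72% and 1.07% of all genes; right, the median log2 change at 1 h (open) and 4 h (filled). CC chemokines, the IL-4 and STAT6 list, CXC chemokines and NF-kB genes have the largest shares of rises, and 6 lists have no member past the rule.

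Several lists had no member past the rule: interferon regulatory factors, the unfolded protein response (30 genes), ribosome biogenesis (35), DNA repair and chromatin (42), the respiratory chain (40) and peroxisome and fatty acid oxidation (37). Their medians were 0.14, 0.09, 0.02, -0.16, -0.11 and -0.24. Of 39 interferon-stimulated genes, 3 rose (Cxcl10, Gbp2 and Gbp3) and the median was -0.02, but against the untreated library of 1 h 14 were lower. Of 26 listed genes of MHC and antigen presentation, none rose. Psmb9, an immunoproteasome subunit, fell at the edge of the rule, from 66.5 to 32.7 FPKM, but stood at 58.3 in the untreated library of 1 h. Outside that list, H2-Q9 went from 37.8 to 80.6 FPKM (1.07, and 0.88 against the untreated library of 1 h). Psme2, also outside it, went from 132.9 to 331.6 FPKM (1.31, and 1.17). H2-Q7, a listed gene, changed by -0.79. Cell cycle and DNA replication genes had a median of -0.31. Of these 49 genes 3 rose and 2 fell, the replication licensing factor Cdt1 (15.1 to 6.89 FPKM, with a change of -0.83 against the untreated library of 1 h) and the factor E2f2 (21.7 to 9.19).

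The falls were shallow on this scale, which limits falls from a low FPKM. Apart from LOC100302567, listed at 0 with IL-33, none reached -2. Those past the rule against both untreated libraries included Fbxo31, Cpeb1, Rogdi and Fndc5, and Pi16, a peptidase inhibitor gene that fell from 25.97 to 9.49 FPKM (-1.36, and -1.65 against 1 h). Nqo2, a quinone reductase related to Nqo1, fell from 32.0 to 12.4 FPKM (-1.29, and -1.25), as Nqo1 rose; it overlaps 2 other genes in the deposited coordinates. Padi4, which citrullinates histones in granulocytes, fell from 276 to 133 FPKM (-1.05, and -1.49). Sytl1, a Rab27-binding protein of granule transport, fell from 59.2 to 25.7 FPKM (-1.17, and -1.58). The neighbouring Frat1 and Frat2, which bind GSK3, fell from 10.5 to 3.81 FPKM (-1.25) and from 19.4 to 7.41 (-1.28), after -1.75 and -1.65 at 1 h.

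Other falls were smaller against the untreated library of 1 h. Tob1, an antiproliferative gene, stood at 51.0 FPKM in the untreated library of 4 h and at 20.8 with IL-33 (-1.25). It stood at 22.02 in the untreated library of 1 h (-0.08), while with IL-33 at 1 h it had changed by -1.22 against its own control. Sgsh, a lysosomal sulfamidase, and its neighbour Slc26a11, a sulfate transporter, fell from 20.2 to 7.24 FPKM (-1.37) and from 7.21 to 2.13 (-1.39), and stood at 8.66 and 3.15 in the untreated library of 1 h. Pik3ip1 stood at 10.6 there, which reduces its change from -1.91 to -0.85. Together with Sesn3 and Tsc22d3 it was among the 3 that fell, with none higher, of 28 FOXO and PI3K-inhibitory genes (median -0.18), and none of the 28 fell against the untreated library of 1 h. The chromatin organiser gene Satb1 went from 18.3 to 6.71 FPKM (-1.32, and -0.94) and the lysophosphatidylserine receptor gene P2ry10 from 30.9 to 11.9 (-1.31, and -0.75).

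The rises differed in timing. Of the 396 higher at 4 h, 133 were also higher at 1 h against their own control, 134 had changed by 0.25 to 1 and 124 by less than 0.25 in either direction, while 5 had been lower by 0.25 or more. The median change at 1 h was 0.61 for these genes and -0.01 for all. Of the 133, 77 had the larger change at 4 h and 56 did not. Of the 114 lower genes, 7 were already lower at 1 h, 34 had changed by -1 to -0.25 and 69 by less than 0.25. Of the genes compared at 1 h, 30 of 10480 were lower (0.286%).

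**Figure D5:**
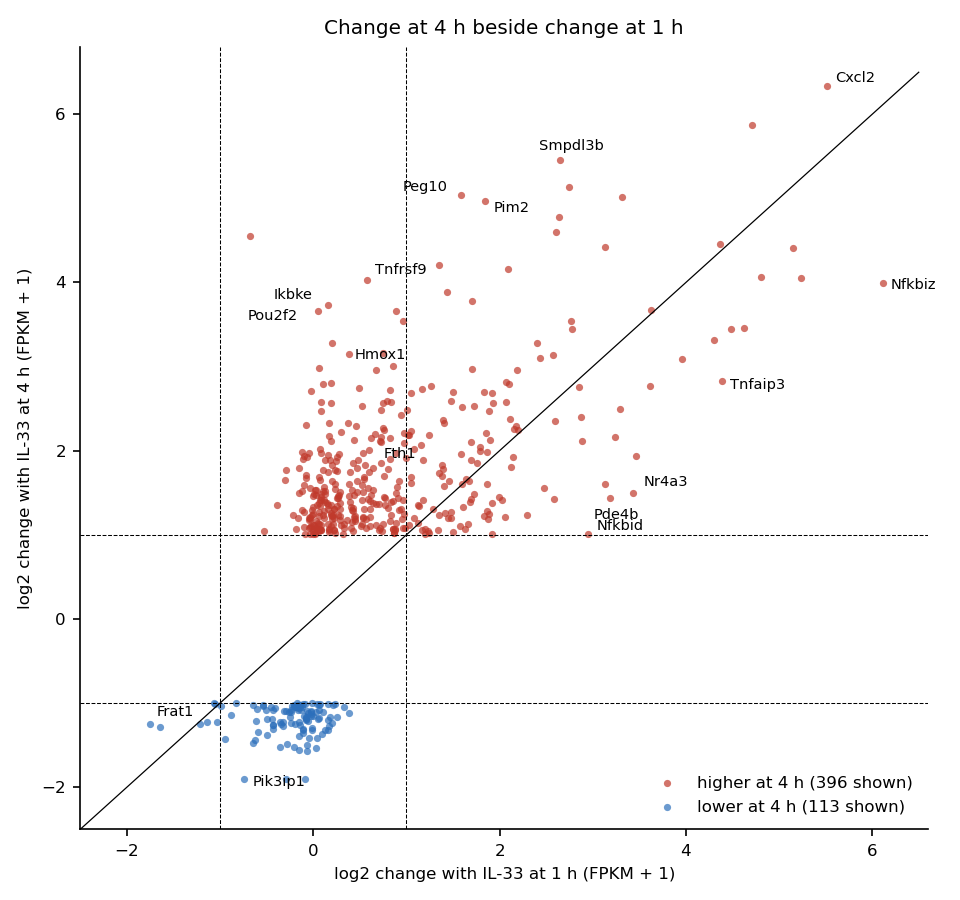
Log2 change of FPKM + 1 with IL-33 at 1 h (horizontal) and 4 h (vertical), each against the untreated library of its own time, for the 396 genes higher (red) and 113 of the 114 genes lower (blue) at 4 h. LOC100302567 lies outside the axes. The solid line marks equal change and the dashed lines mark 1 and -1; Nfkbiz and Tnfaip3 lie below the line, and Ikbke and Pou2f2 rose with a 1 h change within 0.25.

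Beside Ikbke and Pou2f2, the late genes, with a 1 h change within 0.25, included Ppfibp2, a liprin, which went from 9.05 to 68.8 FPKM (2.80), the netrin-related Ntng2 from 39.4 to 240.5 (2.58) and Sept11, a septin, from 6.88 to 42.8 (2.48). Fyb, an adaptor of leukocyte signalling, went from 89.0 to 307 FPKM (1.78). Fbp1, an enzyme of gluconeogenesis, went from 16.7 to 64.3 FPKM (1.89). Slc6a4, the serotonin transporter, went from 2.56 to 16.8 FPKM (2.33, after 0.17 at 1 h). Slc18a2, the vesicular monoamine transporter, was named after values were seen and went from 10.9 to 78.8 FPKM (2.75, after 0.49), while Hdc, which makes histamine, was listed at 96.8 and 181 (0.89). Penk, the enkephalin precursor, went from 0.704 to 6.69 FPKM (2.17).

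Some genes changed in the share of their transcripts more than in their total. Of 1241 genes with several transcripts and at least 10 FPKM in both libraries, 17 moved a transcript by at least 30 percentage points. The same count was 17 of 1189 with IL-33 at 1 h, 30 of 1313 with IL-4 at 4 h and 29 of 1246 with IL-4 at 1 h. F10, coagulation factor X, was listed at 135 and 269 FPKM in total (0.99), with NM_007972 at 106 and 119 and NM_001242368 at 28.8 and 149.7. Etv3, a repressor of the ETS family, changed from 81.4% to 24.8% in NM_001083318.

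Higher genes were also compared by position in the genome. Of the 396 higher genes, 104 (26.3%) had an adjacent compared gene that was also higher, and of all 10655 genes 763 (7.16%) had a higher gene beside them. Groups of at least 3 higher genes, each within 500 kb of the next, numbered 23 and held 79 of them (19.9%). They included Cxcl5, Cxcl3, Cxcl1 and Cxcl2 on chromosome 5 (mm9, 91188325 to 91334964), Ccl5, Ccl9, Ccl3 and Ccl4 on chromosome 11 (83339281 to 83478185) and Jak2, Cd274 and Pdcd1lg2 on chromosome 19 (29326318 to 29547417). Ppm1n, Relb and Bcl3 lay on chromosome 7 (19862156 to 20408104), with 16 compared genes among them that stayed within the rule. Within the paralog groups Gstm1 to Gstm3, Bcl2a1a, Bcl2a1b and Bcl2a1d, Serpina3f to Serpina3h and Pilra with Pilrb1 and Pilrb2, reads may be shared between copies.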

How the data were processed

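RNA-seq values of 6 libraries were deposited as 4 tables, each pairing 1 treated library with the untreated one of the same hour. Per the submitters' processing notes, reads were aligned with TopHat 1.4.1 to mm9 and quantified with Cuffdiff 1.2.1. The values deposited by the authors are FPKM for 28702 RefSeq transcripts. Between its 2 tables the untreated library of 4 h differed by a factor of 0.947, a sign of separate normalisation, so changes were taken within a table. A further deposited list held the authors' log2 fold changes. Its 340 values for IL-33 at 4 h that could be compared equalled those of the table, within 0.01, and were used only for this check. The deposited p-values and q-values compare 2 libraries by their reads, not the conditions, and were left aside, apart from the authors' mark of difference.

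Transcripts were summed per symbol, and 232 symbols placed at more than 1 locus kept the locus of highest FPKM. The change was log2((IL-33 FPKM + 1) / (untreated FPKM + 1)), over genes with an FPKM of at least 1 in either library. An exact 0 is given as listed at 0. The steps were tested on simulated data. The design was written for gene values, but the tables list transcripts. Named genes are the 30 largest rises and 20 largest falls with at least 5 FPKM, predicted symbols (Gm, Rik, LOC) left out, up to 8 members of each of 48 lists, a few fixed cytokine and receptor genes, and genes of the transcript and neighbourhood rules; all other genes named were chosen after values were seen, and a few are not reported here. The members and lists were chosen with earlier results of these data known. List symbols absent from the data were matched through their RefSeq transcripts where possible. Those without a match, such as Il36g, Ly6g and Trbc1, were left out of the counts. Promoter windows came from RefSeq (GRCm38.p6) and gene positions from the deposited mm9 loci. FPKM gives no read counts, so no counting interval is given. Alternatives were other pseudocounts, filters, centring, the untreated library of 1 h and the transcript of highest FPKM. Python 3.11.15, numpy 2.4.6, pandas 2.3.3 and matplotlib 3.10.9 were used.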

Additional observations from a re-analysis of the deposited data

Results flagged for a closer look

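LOC100302567, a predicted symbol, moved in opposite directions at the 2 times. It was listed at 46.9 FPKM without cytokine and at 0 with IL-33 at 4 h (log2 change -5.58), and at 0 without and 29.9 with IL-33 at 1 h (4.95). With IL-4 the changes were -5.66 at 4 h and 5.27 at 1 h. The difference between the times was not tested, and an exact 0 can be a failed estimate.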

How the results depend on the processing

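The count of higher genes, 448 with small RNA genes, ranged from 309 to 536 over 9 alternatives. The count of lower genes, 149, was less stable: it was 324 with a pseudocount of 0.1 FPKM and 64 with one of 5, and 114 to 198 under the other 7. With the untreated library of 1 h in place of that of 4 h, the log2 changes of Egr1 (-1.12), Egr3 (-2.82), Nr4a1 (-0.0013), Plk3 (-1.39) and Itgae (0.28) were reversed, and so was that of Trem1 (-0.63), which the naming rule does not hold; the cause was not tested. Of the 396 higher genes, 5 were then below the control by less than 1 log2 and 4 by more, and 6 of the 114 lower genes were not below it. The median of all genes was then 0.08 in place of -0.03. Of 387 genes named by the rule, 201 were past 1 log2. With that library 45 of them were no longer past it, with a pseudocount of 5 it was 47, with centring 4, with the transcript of highest FPKM 2 and with a pseudocount of 0.1 none. No paired analysis was possible because each group had 1 library. The single libraries limit every value, and the shallower control of 4 h limits genes of low FPKM most.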

Other observations

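Some rises belong to no list described above and were noted after values were seen. Among them, the complement gene C3 went from 10.5 to 27.4 FPKM (1.31) and the complement gene Cfb from 1.36 to 4.94 (1.33). Cd55, which protects cells from complement, went from 14.4 to 43.6 FPKM (1.54). Cd52, a short surface glycoprotein, went from 1088 to 2682 FPKM (1.30), the third largest gain in FPKM among genes past the rule after Fth1 and Ccl3. Genes just under the rule also gained much RNA, with Srgn, the granule proteoglycan serglycin, at 1698 and 3242 FPKM (0.93) and Pla2g7, which inactivates platelet-activating factor, at 1160 and 2250 (0.96). Niacr1, the niacin receptor, went from 40.4 to 185 FPKM (2.16).

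Some falls were likewise noted after values were seen. Prkacb, a catalytic subunit of protein kinase A, fell from 58.4 to 25.7 FPKM (-1.15) and Pdcd4, an inhibitor of translation, from 43.4 to 17.6 (-1.26), each by less than 1 log2 against the untreated library of 1 h. Nlrp12, an inhibitory NOD-like receptor, fell from 20.6 to 9.16 FPKM (-1.09), and by -0.36 on the log2 scale against the untreated library of 1 h.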
